A study of Mus musculus with 9 samples.

Results

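The genes described here build and control the mitotic spindle and the kinetochore, the protein assembly on each centromere to which spindle microtubules attach. They form a list of 38 genes for kinetochore subunits, spindle motors, mitotic cyclins and kinases, the spindle checkpoint and cytokinesis. They were found by gene symbol in the annotation of the array, and each was read from its probe set (a group of short probes against 1 transcript) with the highest mean. Only probe sets that the annotation gave to exactly 1 gene were used, and 37 of the 38 genes had such a probe set. Ccnb1, the gene of cyclin B1, had none of that kind and was not analysed here. All 37 lay over the filter on low values, a log2 intensity of 4, in all 9 arrays, so that no member was lost to it, and they were 37 of 10172 genes tested among 18193 with a probe set.

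RNA of 9 mouse lymphomas was hybridised to 1 Affymetrix array each. Of these, 4 came from Eμ-Myc mice that lacked Eμ-TTP-1, and 5 came from mice that carried both Eμ-Myc and Eμ-TTP-1, called double-transgenic below. Every tumour thus carried Eμ-Myc, and the strain background was 94% C57BL/6 in both groups. Eμ is the enhancer of the immunoglobulin heavy chain gene, which drives the oncogene Myc in B cells, and TTP, encoded by Zfp36, is a protein that recognises AU-rich stretches in mRNAs and speeds their breakdown. The labels call the tumours biological replicates and do not say whether each came from a separate mouse, so the p-values measure the spread between these samples only. The sample titles name a lymphoma and not how it was taken, so the host's other cells may have contributed RNA. The ages of the mice are not given in the sources used here.

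At the entry into mitosis, cyclins A and B activate the kinase Cdk1, and Plk1 and the Aurora kinases then act at centrosomes, kinetochores and the central spindle. The spindle checkpoint (Bub1, Bub1b, Bub3, Mad2l1, Ttk) holds the anaphase-promoting complex and its activator Cdc20 in check until every kinetochore is attached to microtubules. Transcripts of these genes are made mainly in late S phase, G2 and mitosis, so their level in a tissue is widely read as a measure of how many cells are cycling. MYC-driven B cell lymphomas are known for fast division.

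Array medians ran from an intensity of 12.2 to 13.4, with 47.6% to 48.8% of probe sets over the filter's intensity of 16 in each array. With so few arrays per group, their number sets the precision. On the log2 scale the probe set of Zfp36 stood at 10.55 ± 0.38 with the TTP transgene (SD, n = 5) and at 10.57 ± 0.41 without it (SD, n = 4), and whether it detects the transgene is not known. Myc stood at 14.02 ± 0.15 (SD, n = 5) and 13.92 ± 0.26 (SD, n = 4). Of the B cell markers, 8 of 9 were named on the array, and Cd79a and Cd79b, the signalling chains of the B cell receptor, read 13.24 to 14.06 and 14.37 to 15.30 over all 9 tumours. Others varied more: Ms4a1, the gene of CD20, spanned 10.08 to 14.47, and in double-transgenic replicate 2 the surface proteins Cd22 and Cd72 read 6.99 and 7.50, against 11.91 to 12.93 and 10.13 to 12.45 elsewhere. Eμ-Myc replicate 1, and less so Eμ-Myc replicate 3, stood apart from the other tumours in the mitotic genes, so the genotype differences of the members and gene lists are also given without them.

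Promoters of mitotic genes are known for a short sequence near the start site, the cell cycle genes homology region, at which the MuvB complex binds with B-MYB and FOXM1, and for CCAAT boxes bound by NF-Y. Promoter windows from RefSeq (assembly GRCm38.p6), each with 250 bases before and 50 bases after a transcription start, were at hand for 32 of the 38 genes, 4 of them with several starts, which made 37 windows. The letters TTTGAA, the best known form of that region, were searched on both strands, so that TTCAAA counts as well, and so were the letters CCAAT, read as ATTGG on the other strand. TTTGAA stood in 26 of the 37 windows (70.3%) and in 17.9% of all 32851 mouse windows of that length. CCAAT stood in 81.1% of the members' windows and in 37.4% of all windows. Both together stood in 64.9% of the members' windows, those of 21 genes, and in 6.95% of all. The variant TTTAAA was in 24.3% of the members' windows against 13.2% of all. These shares describe letters in a window, not bound sites.

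The 150 bases before the start are shown for 6 genes, 5′ to 3′ on the gene's own strand, to set promoters with both motifs beside promoters with neither. Capitals mark both motifs on either strand. Cdk1 carries TTTGAA 71 and 15 bases before the start, Cdc20 carries it 18, Ube2c 29 and Mki67 116 and 98 bases before the start, each with CCAAT in the same stretch. In the stretches of Mad2l1 and Cenps neither motif was found.
Cdk1, chr10:69352913-69353062, minus strand: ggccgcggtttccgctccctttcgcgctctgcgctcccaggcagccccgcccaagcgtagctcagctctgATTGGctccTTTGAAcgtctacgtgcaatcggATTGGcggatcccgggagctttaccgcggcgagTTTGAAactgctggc
Cdc20, chr4:118437344-118437493, minus strand: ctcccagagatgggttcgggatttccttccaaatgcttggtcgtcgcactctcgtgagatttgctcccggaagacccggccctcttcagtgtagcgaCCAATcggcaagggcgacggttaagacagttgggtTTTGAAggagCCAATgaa
Ube2c, chr2:164769779-164769928, plus strand: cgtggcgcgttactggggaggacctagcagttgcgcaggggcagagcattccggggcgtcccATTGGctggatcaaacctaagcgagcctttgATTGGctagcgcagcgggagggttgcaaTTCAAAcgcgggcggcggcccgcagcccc
Mki67, chr7:135716380-135716529, minus strand: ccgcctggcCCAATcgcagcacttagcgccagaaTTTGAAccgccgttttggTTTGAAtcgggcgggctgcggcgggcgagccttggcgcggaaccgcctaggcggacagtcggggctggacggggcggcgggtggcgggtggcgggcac
Mad2l1, chr6:66535071-66535220, plus strand: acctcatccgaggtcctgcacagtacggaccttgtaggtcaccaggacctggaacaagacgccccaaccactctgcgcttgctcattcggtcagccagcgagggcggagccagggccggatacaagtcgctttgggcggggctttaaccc
Cenps, chr4:149137601-149137750, minus strand: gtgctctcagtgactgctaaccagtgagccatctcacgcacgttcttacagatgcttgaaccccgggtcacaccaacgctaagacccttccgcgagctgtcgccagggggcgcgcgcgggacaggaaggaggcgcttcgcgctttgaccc

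The 37 mitotic genes were low together in Eμ-Myc replicate 1 and, to a smaller extent, in Eμ-Myc replicate 3. Each gene's log2 level was set against that gene's own median over the 9 tumours, which makes genes comparable without comparing their levels. The median of these deviations over the members was -0.98 in Eμ-Myc replicate 1 and -0.48 in Eμ-Myc replicate 3. It was 0.18 and 0.08 in Eμ-Myc replicates 2 and 4, and 0.00, 0.07, 0.00, 0.13 and 0.00 in double-transgenic replicates 1 to 5. The medians of the other 7 tumours therefore lay within a narrow band, and the 2 low tumours both lacked the TTP transgene. Single members in those 7 tumours ran from -0.63, in double-transgenic replicate 3, to 1.29, in Eμ-Myc replicate 2. In the RNA of a tumour sample, fewer cycling cells and less of these mRNAs per cycling cell cannot be told apart.

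In Eμ-Myc replicate 1 all 37 members lay below their median, as did 51.7% of all tested genes. The deviations there ran from -1.76 for Cenpn to -0.19 for Bub3, and 17 of 37 members were more than 1 log2 unit below their median, against 8.46% of all genes. This tumour was the lowest of the 9 for 33 of the 37 members, and for 19.6% of all genes. The other 4 members, Ccna2, Bub1b, Bub3 and Cenps, were lowest in Eμ-Myc replicate 3. There 35 of 37 members lay below their median (51.3% of all genes), with deviations from -1.05 for Spc25 to 0.16 for Kif20a, and 17 were more than 0.5 below it (12.5% of all genes). The 2 exceptions were Mad2l1, which had its median value in that tumour, and Kif20a. For 33 of 37 members these tumours were the 2 lowest of all 9, a pattern held by 8.44% of all genes; the 4 exceptions were Bub1b, Mad2l1, Kif20a and Incenp.

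**Figure D1:**
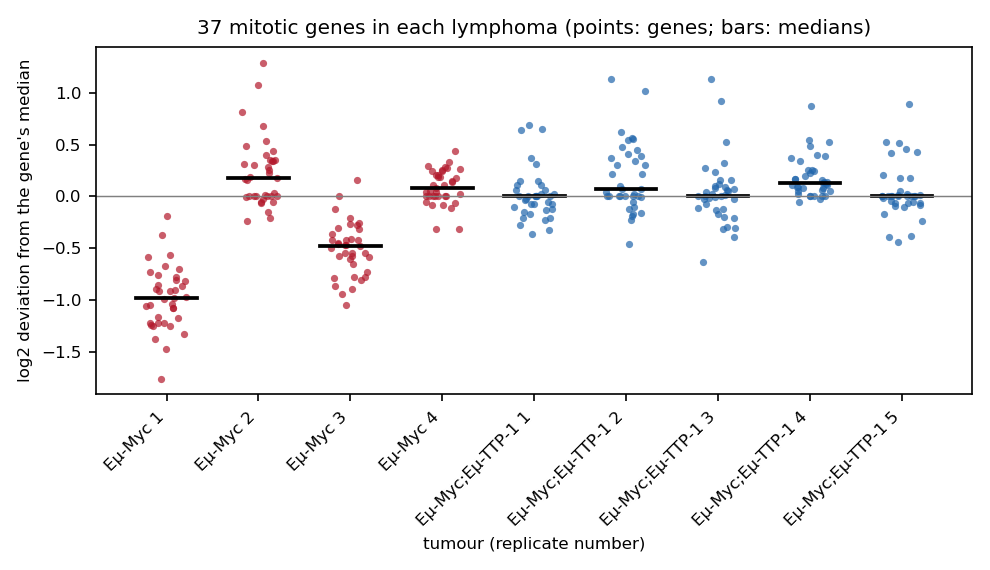
Deviation of each of the 37 mitotic genes from its own median over 9 lymphomas (log2 units, y axis) by tumour (x axis); each point is a gene and the bar is the median over genes. The points of Eμ-Myc replicate 1 lie below 0 throughout, with a median of -0.98, those of replicate 3 centre on -0.48, and the other 7 medians lie between 0.00 and 0.18.

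**Figure D2:**
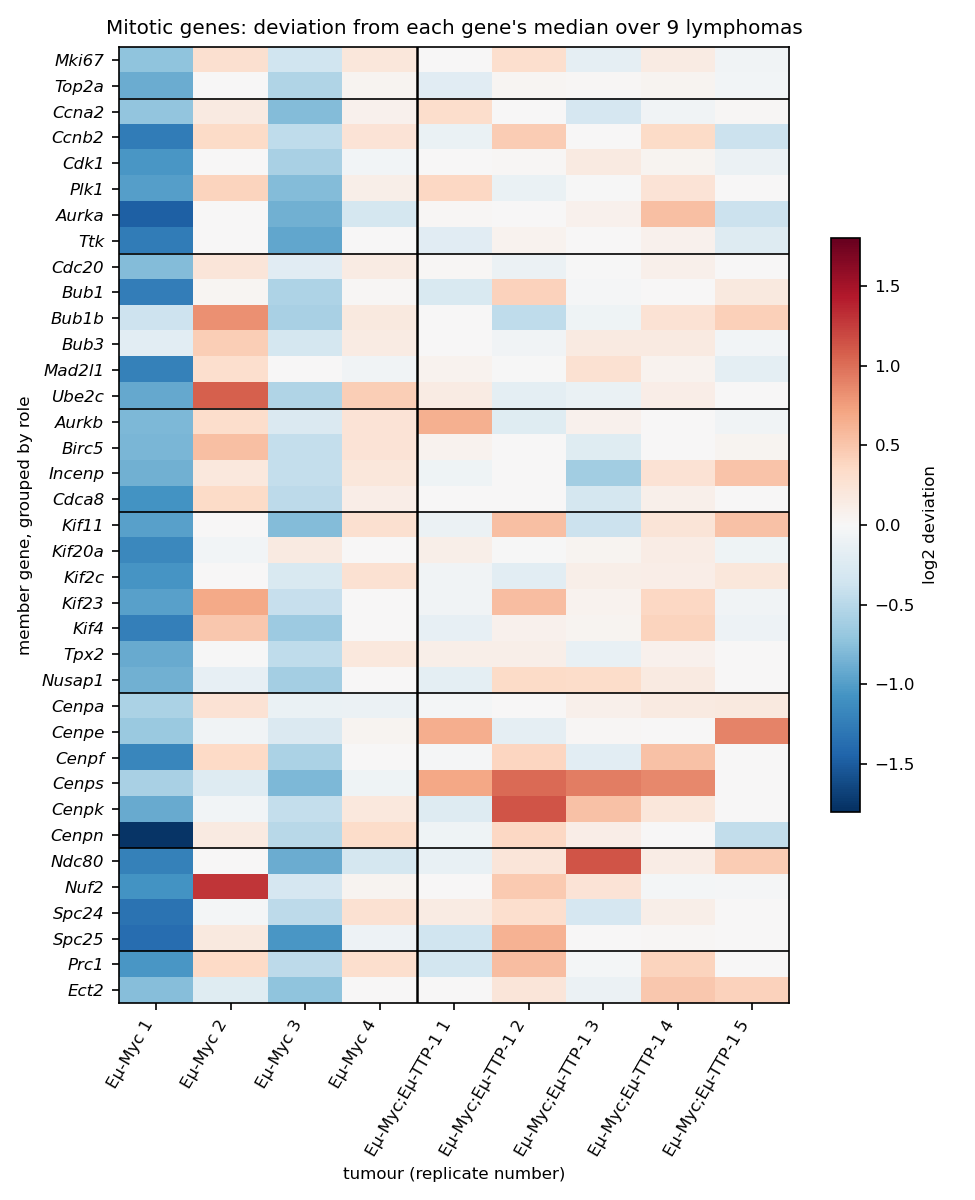
Deviation of each gene (rows, grouped by role) from its own median in each of the 9 tumours (columns), in log2 units, with colour for values below and above the median. The column of Eμ-Myc replicate 1 is below the median in all 37 rows and that of replicate 3 in 35, while Cenps, Ndc80 and Cenpe depart most from the shared profile.

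The proliferation markers Mki67, the gene of the antigen Ki-67 that coats mitotic chromosomes, and Top2a, the topoisomerase that untangles sister chromatids, moved with the rest. Mki67 read 13.48, 14.49, 13.84 and 14.41 in Eμ-Myc replicates 1 to 4, and 14.20, 14.51, 14.04, 14.35 and 14.14 in the double-transgenic tumours. Top2a read 13.05, 13.95, 13.40 and 13.99 in Eμ-Myc, and 13.74, 13.99, 13.96, 14.00 and 13.89 in the double-transgenic tumours. For both genes the 2 lowest values belonged to Eμ-Myc replicates 1 and 3, while Eμ-Myc replicates 2 and 4 lay among the double-transgenic tumours, so the groups overlapped.

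The mitotic cyclins and kinases had the second deepest role median in Eμ-Myc replicate 1, at -1.15, and the deepest in replicate 3, at -0.78. Ccna2, the gene of cyclin A2, which partners Cdk2 in S phase and Cdk1 at mitotic entry, read 12.32, 13.19, 12.24 and 13.11 in Eμ-Myc and 13.34, 13.03, 12.73, 12.97 and 13.05 in the double-transgenic tumours. Cdk1, the kinase that drives mitotic entry, read 11.76, 12.83, 12.23 and 12.76 in Eμ-Myc and 12.81, 12.84, 12.98, 12.87 and 12.71 in the double-transgenic tumours. In both genes only Eμ-Myc replicates 1 and 3 lay under the lowest double-transgenic value. Aurka, the Aurora A kinase of centrosomes and spindle poles, had one of the widest ranges, 2.02 log2 units: 8.58, 10.05, 9.19 and 9.74 in Eμ-Myc against 10.08, 10.05, 10.13, 10.60 and 9.66. Ccnb2, the gene of cyclin B2, Plk1, a kinase of centrosome maturation and kinetochores, and Ttk, the kinase Mps1 that starts checkpoint signalling, had deviations of -1.25, -0.99 and -1.26 in Eμ-Myc replicate 1. In replicate 3 they stood at -0.46, -0.78 and -0.94.

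Checkpoint and anaphase genes were less uniform. Bub3, which carries Bub1 and BubR1 to kinetochores, had the smallest range of all 37 members, 0.76: 12.79, 13.42, 12.66 and 13.13 in Eμ-Myc against 12.98, 12.92, 13.14, 13.14 and 12.94. Cdc20, the activator of the anaphase-promoting complex that the checkpoint inhibits, read 12.48, 13.48, 13.05 and 13.40 in Eμ-Myc and 13.28, 13.15, 13.25, 13.35 and 13.26 in the double-transgenic tumours. Ube2c, the ubiquitin-conjugating enzyme of that complex, read 12.26, 14.25, 12.63 and 13.61 in Eμ-Myc and 13.33, 13.00, 13.06, 13.29 and 13.17 in the double-transgenic tumours. For Ube2c the Eμ-Myc tumours held both the lowest pair and the highest pair of the 9 values, and the double-transgenic tumours lay between them. Bub1, a checkpoint kinase, and Mad2l1, the Mad2 protein that binds Cdc20, had deviations of -1.24 and -1.22 in Eμ-Myc replicate 1, but Mad2l1 was at its median of 12.58 in replicate 3. Bub1b, the gene of BubR1, had its lowest value, 11.36, in Eμ-Myc replicate 3, followed by 11.49 in double-transgenic replicate 2 and 11.57 in Eμ-Myc replicate 1.

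The chromosomal passenger complex corrects wrong attachments at the centromere and consists of the kinase Aurora B (Aurkb), the scaffold Incenp, survivin (Birc5) and borealin (Cdca8). Its 4 genes had deviations between -1.08 and -0.80 in Eμ-Myc replicate 1 and between -0.47 and -0.26 in replicate 3. Incenp read 12.75, 13.81, 13.19 and 13.82 in Eμ-Myc and 13.54, 13.61, 12.98, 13.87 and 14.13 in the double-transgenic tumours. Here double-transgenic replicate 3, not Eμ-Myc replicate 3, was second lowest. The same double-transgenic tumour had the lowest value of its group for Birc5, 12.78 against 12.99 to 13.05, and for Cdca8, 12.79 against 13.10 to 13.19.

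The Ndc80 complex is the rod that joins kinetochores to microtubules; Ndc80 and Nuf2 bind the microtubule, and Spc24 and Spc25 anchor the rod on the chromosome side. Its role median was the deepest in Eμ-Myc replicate 1, -1.27, and it was -0.69 in replicate 3. Nuf2 had the widest range of all members, 2.37: 10.29, 12.67, 11.07 and 11.43 in Eμ-Myc against 11.38, 11.85, 11.61, 11.35 and 11.36. Ndc80 read 8.93, 10.16, 9.26 and 9.84 in Eμ-Myc and 10.02, 10.37, 11.29, 10.29 and 10.61 in the double-transgenic tumours. Only Eμ-Myc replicate 2 reached into the double-transgenic range for Ndc80, whereas for Nuf2 that tumour was the highest of all 9. Spc25 read 9.63, 11.18, 9.95 and 10.92 in Eμ-Myc and 10.64, 11.63, 11.00, 11.03 and 11.02 in the double-transgenic tumours, with Eμ-Myc replicates 1 and 3 under the rest. Spc24 had a deviation of -1.33 in Eμ-Myc replicate 1 and of -0.48 in replicate 3.

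Centromere proteins split by gene. Cenpa, the histone H3 variant that marks centromeres, varied little, 0.83 in all: 12.56, 13.39, 13.01 and 13.02 in Eμ-Myc against 13.10, 13.13, 13.23, 13.30 and 13.31. Cenpn, which binds Cenpa nucleosomes, lay furthest below its median of all members in Eμ-Myc replicate 1: it read 8.45, 10.38, 9.72 and 10.55 in Eμ-Myc and 10.14, 10.59, 10.34, 10.22 and 9.78 in the double-transgenic tumours. Its value in Eμ-Myc replicate 1 was 3.39-fold below its median. Cenpk, another subunit of the inner kinetochore, read 9.74, 10.59, 10.22 and 10.83 in Eμ-Myc and 10.41, 11.78, 11.17, 10.84 and 10.64 in the double-transgenic tumours, with its highest value in double-transgenic replicate 2. Cenps, a histone-fold protein shared by the kinetochore and a DNA repair complex, read 8.21, 8.56, 7.98 and 8.71 in Eμ-Myc and 9.48, 9.81, 9.71, 9.66 and 8.79 in the double-transgenic tumours. For Cenps alone among the 37 members the groups did not overlap, and 1.18% of all tested genes were higher without overlap; the gap between the nearest tumours was that between 8.71 and 8.79. Cenpe, a kinesin that moves chromosomes to the spindle equator, read 11.64 and 11.88 in double-transgenic replicates 1 and 5, and 10.32 to 11.04 elsewhere. Cenpf, a large coiled-coil protein of the outer kinetochore, stood at -1.17 from its median in Eμ-Myc replicate 1 and at -0.58 in replicate 3.

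Spindle motors and microtubule binders had a role median of -0.98 in Eμ-Myc replicate 1 and -0.45 in replicate 3, and all 7 were lowest in replicate 1. Nusap1, which bundles microtubules near chromosomes, read 12.30, 13.01, 12.56 and 13.16 in Eμ-Myc and 12.99, 13.50, 13.49, 13.33 and 13.16 in the double-transgenic tumours. Kif20a, a kinesin of the central spindle needed for cytokinesis, was at 10.30 in Eμ-Myc replicate 1, while the other 8 tumours spanned 11.38 to 11.63, with its highest value in Eμ-Myc replicate 3. Kif11, the motor that pushes spindle poles apart, was at 11.18 and 11.38 in the 2 low Eμ-Myc tumours, against 11.77 to 12.70 elsewhere. Kif2c, a kinesin that takes microtubules apart at centromeres, Kif23, the motor of the centralspindlin complex, and Kif4, a chromosome-bound kinesin, had deviations of -1.06, -0.97 and -1.22 in Eμ-Myc replicate 1. Tpx2, which activates Aurora A on the spindle, read 10.08, 10.99, 10.54 and 11.18 in Eμ-Myc and 10.87 to 11.10 in the double-transgenic tumours.

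Of the cytokinesis genes, Ect2, which activates RhoA at the division furrow, read 10.22, 10.76, 10.25 and 10.98 in Eμ-Myc and 10.98, 11.19, 10.87, 11.46 and 11.39 in the double-transgenic tumours. Eμ-Myc replicate 4 lay above the 2 lowest double-transgenic tumours, and the other 3 Eμ-Myc tumours lay below all 5. Prc1, which bundles the microtubules of the central spindle, was at 9.31 and 9.88 in the 2 low Eμ-Myc tumours, against 10.03 to 10.91 elsewhere.

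**Figure D3:**
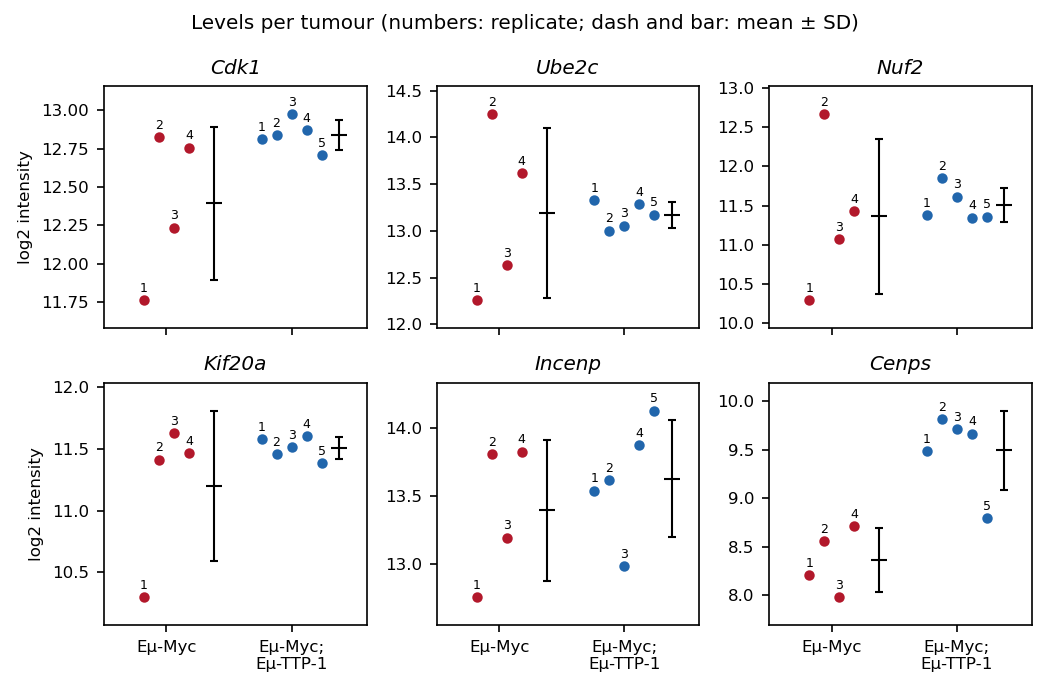
Log2 intensity (y axis) in each of the 9 lymphomas for Cdk1, Ube2c, Nuf2, Kif20a, Incenp and Cenps; numbered points are tumours, Eμ-Myc in red and double-transgenic in blue, and dashes with bars are group means ± SD. The 2 lowest points for Cdk1, Ube2c, Nuf2 and Cenps are Eμ-Myc replicates 1 and 3, Cenps has no overlap between groups, and Ube2c has its highest and lowest points in the Eμ-Myc group.

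The comparison of genotypes asked how tumours that arose with the TTP transgene differ in these mRNAs from tumours without it. None of the 37 members passed the test: the lowest limma adjusted p of a member was 0.845, against a threshold of 0.05, and 0% of the 10172 tested genes passed (0 genes, with 577 at an unadjusted limma p under 0.05). The mean was nonetheless higher in double-transgenic lymphomas for 36 of 37 members, where 58.9% of all tested genes were higher; Ube2c was the exception. Differences are given as double-transgenic minus Eμ-Myc in log2 units, and their median was 0.34 over the members and 0.05 over all tested genes. Since the members share tumours and largely share a profile, the 36 are not 36 separate pieces of evidence.

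The size of the difference varied with the Eμ-Myc tumours included. The median over the members was 0.11 without Eμ-Myc replicate 1 (27 of 37 higher), 0.56 without replicate 2 (37 higher), 0.30 without replicate 3 (33 higher) and 0.51 without replicate 4 (37 higher). With array weights it was 0.16, with 32 of 37 higher. The weight was lowest for Eμ-Myc replicate 1, at 0.46. It was 0.57 for Eμ-Myc replicate 3 and for double-transgenic replicate 2, and 1.06 to 2.15 for the others. Whether a low weight reflects the quality of an array was not tested. Without both Eμ-Myc replicates 1 and 3, a choice made after seeing the data, 13 of 37 were higher, with a median of -0.07 against 0.01 for all genes. These are the lowest tumours of 1 group, so leaving them out lowers the difference by construction. Among all 10172 tested genes, 5718 were higher without Eμ-Myc replicate 1 and 5283 without both replicates 1 and 3. The spread over tumours was larger in Eμ-Myc: the SD exceeded that of the double-transgenic group for 34 of 37 members, as for 59.4% of all genes, with Cenpe, Cenps and Cenpk as exceptions. Both low tumours belong to the Eμ-Myc group, so the members' larger SD there is not separate from their low values.

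At an unadjusted limma p under 0.05, 5 of 37 members were higher (3.87% of all tested genes), namely Aurka, Cenps, Nusap1, Ndc80 and Ect2, and each had a limma adjusted p of 0.845. Cenps had a log2 difference of 1.13 (SE 0.24, 95% interval 0.57 to 1.68), that is 8.36 ± 0.33 in Eμ-Myc (SD, n = 4) against 9.49 ± 0.41 (SD, n = 5), with an exact permutation p of 0.0159, two-sided and for this gene alone. Its difference was 1.07 without Eμ-Myc replicate 1 and 0.86 without both low tumours. Ndc80 had a difference of 0.97 (SE 0.32, 95% interval 0.24 to 1.70; exact permutation p = 0.0238) and Ect2 one of 0.62 (SE 0.21, 95% interval 0.15 to 1.10; exact permutation p = 0.0397). Without both low tumours these were 0.52 and 0.30. Nusap1 differed by 0.54 (SE 0.21, 95% interval 0.07 to 1.01; exact permutation p = 0.0476) and Aurka by 0.72 (SE 0.31, 95% interval 0.01 to 1.42; exact permutation p = 0.0794), which came to 0.21 for each without both. These exact tests were two-sided and are not adjusted for the 37 genes.

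The other 32 members had a larger unadjusted p. Ube2c had a difference of -0.02 with a 95% interval of -0.87 to 0.83, so a change of either sign within that interval was not excluded. Cdk1 differed by 0.45 (95% interval -0.05 to 0.94), Spc25 by 0.64 (-0.14 to 1.43), Cenpk by 0.62 (-0.10 to 1.35), Ccna2 by 0.31 (-0.23 to 0.85) and Mki67 by 0.19 (-0.32 to 0.70). Nuf2 differed by 0.14 (-0.79 to 1.08) and Ndc80, its partner in the dimer, by 0.97 as above. Without both low tumours the differences were 0.05 for Cdk1, 0.02 for Spc25, 0.26 for Cenpk, -0.12 for Ccna2, -0.20 for Mki67, -0.54 for Nuf2 and -0.76 for Ube2c. By role, the median difference was 0.26 for the proliferation markers, 0.43 for cyclins and kinases, 0.09 for checkpoint and anaphase genes and 0.22 for the passenger complex. It was 0.54 for the Ndc80 complex, 0.50 for centromere proteins, 0.35 for motors and binders and 0.48 for cytokinesis genes. Without Eμ-Myc replicate 1 the checkpoint and passenger medians were -0.05 and -0.03, with 1 of 6 and 1 of 4 genes higher, and the other role medians lay between 0.07 and 0.30. Without both low tumours the role medians were, in the order above, -0.13, -0.09, -0.22, -0.23, -0.03, 0.13, -0.06 and 0.05.

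**Figure D4:**
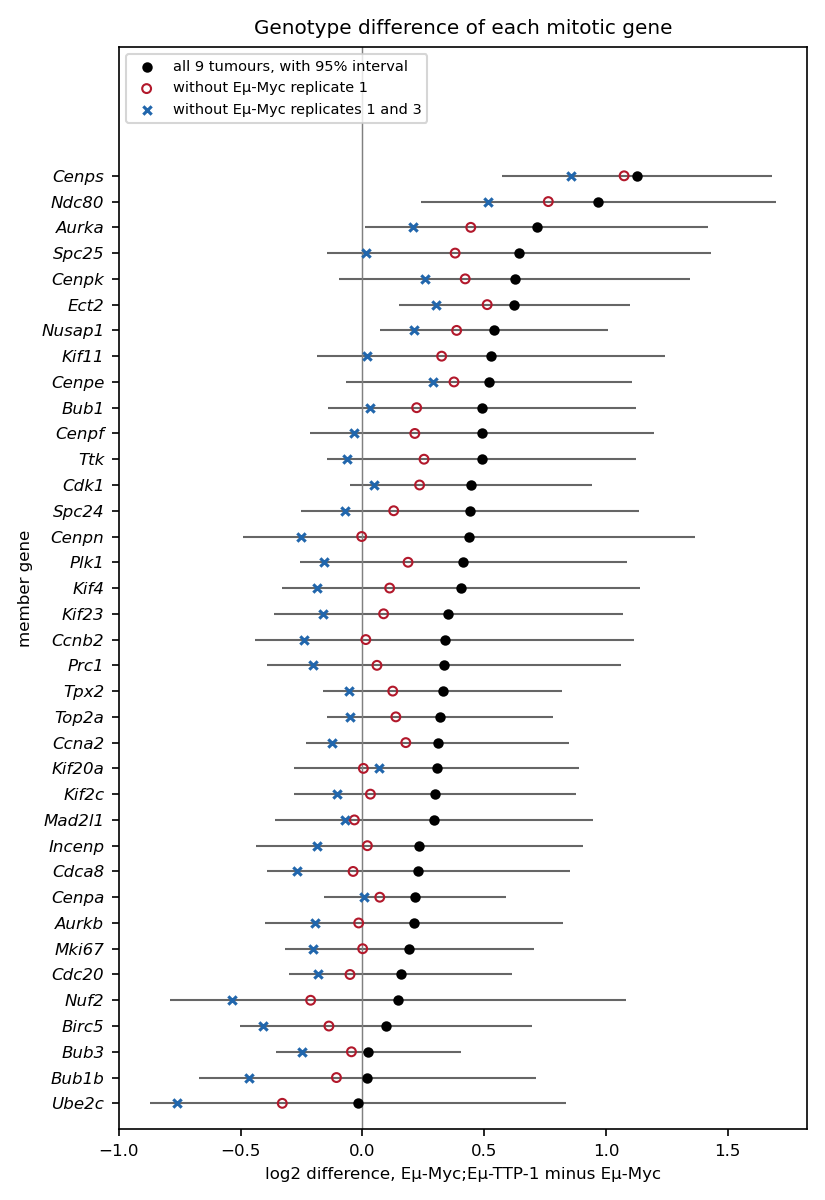
Log2 difference (double-transgenic minus Eμ-Myc, x axis) of each mitotic gene (y axis) with its 95% interval from limma, beside the differences without Eμ-Myc replicate 1 and without Eμ-Myc replicates 1 and 3. With all tumours 36 of 37 points lie above 0 and most intervals include it, and without both tumours 13 of 37 points lie above 0.

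The low values of Eμ-Myc replicate 1 spanned the genome: members lay on 16 chromosomes, and their median deviation in that tumour was below 0 on each. The 3 largest departures of a member from the members' median lay on chromosomes whose other tested genes had a median deviation near 0 in that tumour. These were Ndc80 in double-transgenic replicate 3 (1.13 above the members, chromosome 17 at 0.00), Nuf2 in Eμ-Myc replicate 2 (1.11, chromosome 1 at 0.00) and Cenpk in double-transgenic replicate 2 (1.06, chromosome 13 at 0.03). In some tumours a whole chromosome was shifted, by a median of at least 0.15 over its tested genes with members left out, and 7 members lay on such chromosomes. Chromosome 19 had a median of -0.46 over 369 genes in double-transgenic replicate 3 and 0.33 in replicate 5. Its members Kif11 and Incenp lay at -0.39 and -0.63 in the first and at 0.52 and 0.51 in the other. Chromosome 18 was at 0.32 in Eμ-Myc replicate 3, where Kif20a stood at 0.16 beside a members' median of -0.48. Chromosome 3 was at 0.25 and 0.26 in double-transgenic replicates 1 and 5, where Cenpe stood at 0.65 and 0.89. In the same tumours Ccna2 stood at 0.31 and 0.02 and Ect2 at 0 and 0.42. That chromosome was also at 0.25 in Eμ-Myc replicate 1, where Ccna2, Cenpe and Ect2 stood at -0.71, -0.67 and -0.76. These values lay 0.27, 0.31 and 0.22 above the members' median of -0.98 in that tumour. In Eμ-Myc replicates 2 and 3 chromosome 3 was at -0.18 and -0.20. There Ccna2 stood at 0.16 and -0.79, Cenpe at -0.06 and -0.26 and Ect2 at -0.21 and -0.73. Chromosome 17 was at 0.33 in double-transgenic replicate 5, where Ndc80 stood at 0.46. Shifted chromosomes made 21 pairs of a member and a tumour. In 19 of these the member departed from the members' median in the direction of the shift. The pairs share chromosomes and tumours, so they are not separate observations. The part of these shifts in the members' values was not tested beyond a centring of each chromosome, chosen after seeing the data: 35 of 37 members then had a higher mean, the median difference was 0.33, and the median deviation in Eμ-Myc replicate 1 was -0.97.

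Further probe sets of the same genes were compared for sign and for Eμ-Myc replicate 1. The members had 69 probe sets over the filter, and 21 members had more than 1. All probe sets of a gene had the same sign of difference for 19 of these 21; Bub1b, with -0.10 and 0.02 among its values, and Bub3, with values from -0.08 to 0.57, were the exceptions. Of the 32 further probe sets, 30 lay below their own median in Eμ-Myc replicate 1, where 19 of them had their lowest value. The probe set names of 4 members (Cdc20, Aurkb, Kif2c and Incenp) end in _x_at, which marks probes that can match other transcripts, so these are less certain. For Cdc20 another probe set without that ending gave a difference of 0.49 in place of 0.16 and a deviation of -0.79 in place of -0.21 in Eμ-Myc replicate 3. For Kif2c such probe sets gave 0.52 and 0.39 in place of 0.30, and -0.78 and -0.73 in place of -0.27. In Eμ-Myc replicate 1 they gave -0.97 and -0.46 in place of -1.06. The Kif2c probe set with a difference of 0.39 had its lowest value in Eμ-Myc replicate 3. For Aurkb such a probe set gave 0.24 in place of 0.21 and, in Eμ-Myc replicate 3, -0.32 in place of -0.26. Incenp went the other way in Eμ-Myc replicate 3, where such probe sets gave -0.34, -0.12 and -0.12 in place of -0.42. Their differences were 0.24, 0.35 and 0.19 in place of 0.23. In Eμ-Myc replicate 1 the Incenp probe set with a difference of 0.35 gave -0.11 in place of -0.86, and the others lay below -0.86.

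Other genes of mitosis and DNA replication were also low in Eμ-Myc replicates 1 and 3, and 0 genes passed the test in any list by limma. Of 28 other kinetochore and centromere genes, 26 were higher and 2 lower in mean, with a median difference of 0.38 and median deviations of -0.94 and -0.37 in Eμ-Myc replicates 1 and 3. They ran from Ska2, a microtubule-binding kinetochore protein (0.87), to Mis18a, which helps load Cenpa (-0.35). Of 21 other mitotic kinase, phosphatase and checkpoint genes, 19 were higher, with a median of 0.45, from Gtse1 (1.05) to Bora, a Plk1 activator (-0.34). Of 34 other spindle, kinesin and cytokinesis genes, 33 were higher, with a median of 0.34, from Psrc1 (1.53) to Kpna2 (-0.06). Of 10 genes for condensin and chromosome structure, 9 were higher, from Ncapd2, a condensin subunit (0.48), to Hmgb2 (-0.05). Of 34 DNA replication genes, 32 were higher, with a median of 0.34, from Gins2, a part of the replicative helicase (1.07), to Ccne1, the gene of cyclin E1 (-0.68). Beside these, 58.9% of all tested genes were higher. Without Eμ-Myc replicate 1 the counts were 23 of 28, 17 of 21, 25 of 34, 5 of 10 and 28 of 34 in the same order. Without both low tumours they were 17 of 28, 11 of 21, 15 of 34, 4 of 10 and 17 of 34, with medians of 0.04, 0.03, -0.07, -0.05 and 0.01. Beside these lists and those below, 5718 of all 10172 tested genes were higher without Eμ-Myc replicate 1, and 5283 without both low tumours.

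Subunits of the anaphase-promoting complex and separase stood closer to their medians. Of 17, 16 were higher in mean with a median of 0.14, but their median deviations were -0.11 and -0.23 in Eμ-Myc replicates 1 and 3, and 5 of 17 were lowest in replicate 1. They ran from Pttg1, the gene of securin (0.40), to Anapc1 (-0.06). Without Eμ-Myc replicate 1, 14 of 17 were higher, and 9 of 17 without both low tumours. Inhibitors of the cell cycle and genes of cell cycle exit were evenly split, 9 higher and 9 lower, with a median difference of 0.01. Their median deviations were 0.05 and -0.02 in Eμ-Myc replicates 1 and 3, but single genes spanned -2.84 to 6.19 and -1.31 to 0.53 there. The differences ran from Ccng2 (1.19) to Cdkn1c (-1.35, 95% interval -4.00 to 1.30). That of Cdkn1c rests on Eμ-Myc replicate 1, which read 9.78, against 3.63 to 5.06 elsewhere. Of the 18 inhibitors and exit genes, 11 were higher without Eμ-Myc replicate 1 and 11 without both low tumours.

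Of 24 regulators of mitotic transcription, 18 were higher and 6 lower, with a median of 0.22, and their median deviation was -0.53 in Eμ-Myc replicate 1 and -0.18 in replicate 3. They ran from Nfya, a subunit of NF-Y (0.73), to E2f6, a repressor of the E2F family (-0.11). Without Eμ-Myc replicate 1, 18 of 24 were higher, and 13 of 24 without both low tumours. Foxm1, the forkhead factor of G2 genes, read 6.95, 8.79, 8.18 and 8.21 in Eμ-Myc and 8.49, 8.20, 8.84, 8.83 and 8.54 in the double-transgenic tumours. Mybl2, the gene of B-MYB, read 7.25, 8.85, 8.75 and 8.85 against 9.15, 8.69, 9.30, 8.85 and 8.89. E2f1, an activator of S phase genes, read 7.40, 8.75, 8.39 and 9.20 against 8.70, 9.39, 8.61, 8.72 and 8.63. All of these were lowest in Eμ-Myc replicate 1, with deviations of -1.54, -1.59 and -1.30, and stood at -0.31, -0.10 and -0.31 in replicate 3. The probe sets of Foxm1, Mis18a, Hmgb2 and Ccne1 are also of the _x_at kind.

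**Figure D5:**
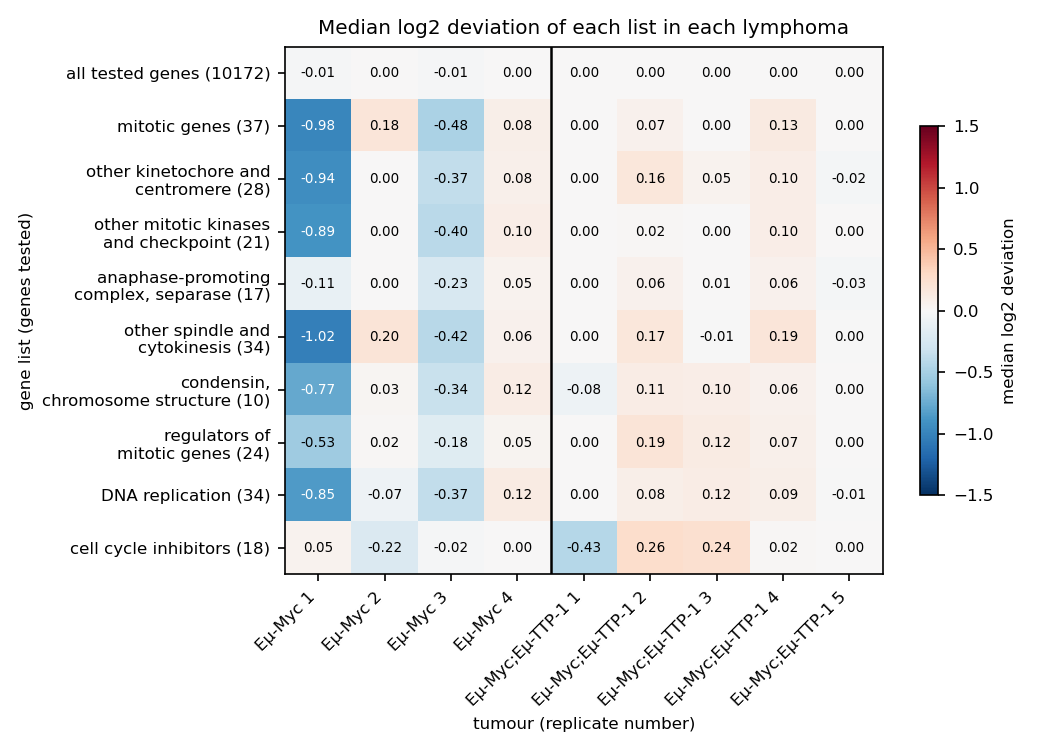
Median deviation from each gene's own median (log2 units) of the mitotic genes and of lists of other cell cycle genes in each of the 9 tumours. The mitotic, kinetochore, spindle, condensin and replication lists lie between -1.02 and -0.77 in Eμ-Myc replicate 1. The median of the inhibitors and exit genes is 0.05 there, with single genes from -2.84 to 6.19.

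Members were low in these tumours with and without the promoter letters. Of the 31 members with a probe set and a window, the 23 with TTTGAA had a median deviation of -1.04 in Eμ-Myc replicate 1 and -0.55 in replicate 3, and the 8 without it had -0.89 and -0.42. Mad2l1 and Cenps, whose printed stretches hold neither motif, stood at -1.22 and -0.58 in replicate 1, and Cdk1, Cdc20, Ube2c and Mki67 at -1.05, -0.78, -0.92 and -0.73. The ranges of both sets overlapped, and the difference was not tested.

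The members followed their shared profile to different degrees. Over 9 tumours, the mean absolute distance between a member's deviations and the members' median profile was 0.174 at the median, and 0.359 for the other tested genes. The profile was taken from these same members, so their smaller distance is built in and is no evidence of a shared profile. Tpx2 was nearest at 0.0769 and Cenps farthest at 0.511, followed by Ndc80 (0.345), Cenpe (0.303) and Bub1b (0.291). Among 9949 tested genes outside the members and lists, the 8 nearest to the profile were Prr11 (0.055), Gmnn and Nfatc2ip (both 0.071), Palb2 (0.080), Hirip3 (0.083), Cbx5 (0.086), Dut (0.091) and Insig1 (0.093). A flat profile had a distance of 0.213, so a gene that varies little can also score low. Some members, among them Cenps, Ndc80, Cenpe, Bub1b and Aurka (0.270), lay farther from the profile than that. Gmnn, the gene of geminin, which blocks repeated licensing of origins, was at 11.12 and 11.84 in the 2 low Eμ-Myc tumours, against 12.20 to 12.51 in the other 7. The 8 nearest genes, Gmnn among them, were picked by this likeness, so their low values in those tumours are no separate evidence.

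Markers of other cell types varied between tumours, and their part in the mitotic values was not tested. Summed intensities are given as a range over the Eμ-Myc tumours and then over the double-transgenic ones. For B cell markers these were 52885 to 93118 and 70219 to 77176, with 71681 in Eμ-Myc replicate 1 and 52885 in replicate 3. Precursor B cell markers (11 of 12 named) spanned 8567 to 62428 and 31574 to 123597, with 62428 and 50732 in those tumours, and mature B cell markers (7 of 10 named) 38920 to 59805 and 5297 to 47497, with 42412 and 59805. Granulocyte markers (11 of 12 named) spanned 842 to 20485 and 235 to 22760; Eμ-Myc replicate 1 had the lowest sum of its group and replicate 3 the highest. Macrophage and dendritic cell markers (13 of 14 named, Siglech under the filter throughout) spanned 27452 to 78635 and 34670 to 56632, with 29978 and 78635 in those tumours. Plasma cell markers (5 of 6 named) spanned 6163 to 12867 and 5537 to 10061, with 8555 and 6242. T and NK cell markers (12 of 15 named) spanned 148 to 1119 and 216 to 921, and Cd3e, Cd5, Ncr1 and Gzmb were under the filter in all tumours. Erythroid markers (9 of 13 named) spanned 89.96 to 220.2 and 201.9 to 34070, with Hba-a1, Alas2, Epor, Klf1 and Car1 under the filter in all. Car2 carried the high sums, at a log2 level of 15.05 in double-transgenic replicate 2, while Hba-a2 and Hbb-b2 stayed between 4.18 and 5.65 in every tumour. Stromal and endothelial markers (12 of 12) spanned 12229 to 67428 and 6722 to 57604, with 22814 and 19236.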

How the data were processed

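RNA of 9 lymphomas was measured on 1 array each. The authors deposited 1 table of probe set intensity values that, per the submitters' processing notes, come from GCRMA (no version is given there); these are on a linear scale, from 1.56 to 123104.7, and log2 was taken with no pseudocount. The processing removes differences in overall level between arrays, so every value is relative to the array. Scanner files, detection calls and scan dates were not analysed here. Of 45037 probe sets, 34945 named 1 gene in the platform annotation, 932 several and 9160 none; 34741 matched the gene table of GRCm38.p6. Of several probe sets of a gene the one highest on average was used, and 10172 genes over a log2 value of 4 in at least 4 arrays were tested in R 4.3.3 by limma 3.58.1 (lmFit then eBayes, no covariates, two-sided, Benjamini-Hochberg over all tested genes), which was checked on simulated data.

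The members and lists were chosen with earlier results of these data known. Every tumour's value is given for the members with the 8 largest and 4 smallest ranges, up to 4 of each direction with the smallest p and the highest of each role; of the other lists, for 3 regulators, and the most positive and negative difference is given. Single genes were also tested by exact permutation of the tumours between the groups. Alternatives were median centring, quantile normalisation, array weights, a pseudocount of 16, no filter, a filter at a log2 value of 6, every probe set or the mean per gene, leaving out those ending in _x_at, a robust prior with a trend, a replicate block, each array left out and, added later, both low tumours left out and chromosome centring. Replicate numbers did not pair the tumours.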

Additional observations from a re-analysis of the deposited data

Results flagged for a closer look

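In each group of 4 or 5 tumours, a value was singled out where its gap to the nearest of the others exceeded Dixon's limit. This was the case for Kif20a in Eμ-Myc replicate 1, at a log2 level of 10.30 against 11.41 to 11.63 in the other 3 Eμ-Myc tumours. Birc5 in double-transgenic replicate 3 read 12.78 against 12.99 to 13.05 in the other 4. Cdca8 in the same tumour read 12.79 against 13.10 to 13.19. These were 3 of 76 groups of values tested, and chance singles out about 1 in 20, or 3.8 of 76.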

How the results depend on the processing

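The number of arrays limits every value, and array signals give no read depth. No member passed the test under any alternative, and over the settings that changed 1 choice, 711 of 740 comparisons kept direction and side of the threshold. Part of these could not change direction. With no filter, a filter at 6, or a robust prior with a trend, each member's difference stays the same by construction. Members with a higher mean numbered 27 to 37 when 1 array was left out, and 13 with both low tumours left out, where 2 of the 4 Eμ-Myc arrays remained. Over all genes, 0 to 8 passed with 1 array left out: 8 without Eμ-Myc replicate 3, 1 without Eμ-Myc replicate 4 and 0 in the other cases; 14 passed with both low tumours out. The lowest limma adjusted p of a member was 0.426, without Eμ-Myc replicate 3, and 0.329 with both out.

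The sign changed for 10 members. Bub1b was -0.014 with the mean of probe sets, -0.055 with median centring, -0.058 with array weights and -0.00082 with chromosome centring. Bub3 was -0.052 with median centring and -0.050 with array weights. With array weights Birc5 was -0.10 and Nuf2 -0.15. Leaving out 1 array gave -0.051 to 0.28 for Cdc20, -0.016 to 0.36 for Aurkb, -0.18 to 0.29 for Bub1b, -0.089 to 0.16 for Bub3 and -0.033 to 0.47 for Mad2l1. It gave -0.0033 to 0.69 for Cenpn, -0.14 to 0.31 for Birc5, -0.038 to 0.43 for Cdca8, -0.33 to 0.34 for Ube2c and -0.21 to 0.58 for Nuf2. The cause of these changes was not tested.

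Replicate numbers did not pair the tumours: deviations of same-numbered tumours correlated at -0.09, 0.09, -0.0033 and 0.20. With a replicate block 35 of 37 members had a higher mean, 0 passed, and Bub1b was -0.080.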

Other observations

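Some genes outside the members had their highest value in Eμ-Myc replicate 1; they were chosen after their values were seen. Cdkn1c, the gene of the cell cycle inhibitor p57, read 9.78 in that tumour and 3.63 to 5.06 in the other 8, close to the filter of 4 on the log2 scale. Prdm1, the gene of the plasma cell factor Blimp-1, read 7.68 there and 2.13 to 6.18 elsewhere. Sdc1, the plasma cell surface protein syndecan-1, read 7.74 there and 3.37 to 6.06 elsewhere. The other 3 plasma cell markers measured were not highest there: Xbp1 read 10.76, second lowest of the 9 tumours, Jchain read 9.21 with 12.44 in Eμ-Myc replicate 4, and Irf4 read 12.51 with 12.59 in double-transgenic replicate 3.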
